A study of Homo sapiens with 84 samples.

Results

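HCC1143, an established cell line of basal-like triple-negative breast cancer (TNBC), was compared between cells given tazemetostat with ipatasertib and cells given DMSO, the solvent control. The comparison holds all 6 HCC1143 libraries, 3 of the combination and 3 of DMSO, of the 78 libraries counted in 9 TNBC lines. Open chromatin was measured by Omni-ATAC, a form of ATAC-seq that tags accessible DNA through cuts made by Tn5, with 50000 cells in each transposition. Each drug was given at 5 uM in medium with 2% FBS. Tazemetostat began on day -5 and ipatasertib on day 0, with collection 24 hours later; this schedule is written out for MDA-MB-468 and is taken to hold here. No HCC1143 library had a single agent, so the parts of the 2 drugs in any change below cannot be told apart. No label says whether the 3 libraries of a group came from separate cultures.

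Tazemetostat blocks EZH2, the enzyme of the Polycomb repressive complex PRC2 that methylates histone H3 at silenced genes, many of them regulators of embryonic development. Ipatasertib blocks the AKT kinases, which carry signals from growth factor receptors through PI3K and keep the FOXO transcription factors out of the nucleus. Basal-like breast cells are epithelial cells that carry keratins of the basal layer and few luminal hormone-response genes, and accessible chromatin marks the promoters and enhancers in use in a cell.

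The libraries held 12292571 to 15358850 counts in peaks, and counts within 1000 bp of a transcription start site (TSS) made up 24.3% to 25.6% of each. Within either group, the 3 libraries differed by less than sampling noise, with a ratio of observed to sampling variance of 0.770 to 0.904 for the 6 pairs. Between the 2 groups, with the 3 libraries of each summed, the ratio was 5.69. Such a ratio grows with the counts, so it cannot be set directly against those of single pairs. As the 3 libraries of a group lay below sampling noise, they were counted as 1 sample, and values are given for each library without an SD. The p-values and SE within HCC1143 take their spread from these libraries, which lay below sampling noise, so they can be smaller than counting error gives. The p-values do not cover the spread between cultures. They compare those libraries, not the conditions at large. Epithelial and basal markers had the highest medians of the marker sets checked. In DMSO the 8 of 9 epithelial markers tested had a median of 115 CPM (counts scaled to a library total of 1000000). The median was 91.9 CPM for 7 of 7 basal, 48.2 CPM for 7 of 7 mesenchymal, 33.1 CPM for 5 of 5 endothelial and 17.4 CPM for 4 of 5 fibroblast markers. Of 6 immune markers 3 were tested, with a median of 24.3 CPM and a highest value of 132 CPM. PTPRC, the pan-leukocyte marker, and MS4A1, a B cell marker, were not tested. A gene can be untested for low counts or for want of a peak assigned within 10 kb of its TSS. Being tested does not by itself set cell types apart.

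Accessibility near genes changed widely. A gene's value is the sum of the counts in peaks within 10 kb of its TSS, in CPM of all such sums. Of 21318 genes tested, 7159 (33.6%) changed at an adjusted p under 0.05, 4044 of them upward (19%) and 3115 downward (14.6%; edgeR quasi-likelihood test, Benjamini-Hochberg adjustment). DESeq2 called 4021 of the 21318 genes, 2510 risen and 1511 fallen. Over peaks within 1 kb, edgeR called 3621 of 15901 tested genes, 2262 risen and 1359 fallen. With 1 library left out, 5965 to 6214 genes were called. Counts of list members in these settings, given below, belong beside these lower totals and not beside the 19% and 14.6%. Most changes were small. With a log2 fold of at least 0.5 in size asked for as well, 2241 genes (10.5%) were called, 1514 risen (7.1%) and 727 fallen (3.41%). The libraries of the 2 groups did not overlap for 9905 genes (46.5%). Direction moved with the level of the gene. With genes in 5 bins by mean CPM, 28.5% rose and 9.70% fell in bin 2, and 11.6% rose and 26.5% fell in bin 5, the highest. The 19% and 14.6% of all genes set beside each list below take no account of level. The lists and their members were chosen with earlier results of these data known, so their counts are descriptions and not tests. A rise in this bulk signal can mean more cells with an open site or a more open site in each cell, which cannot be told apart.

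The 12 genes with the largest rises had little accessible chromatin in DMSO, with CALCR the highest of them. The calcitonin receptor gene CALCR had 13.1, 16.4 and 13.8 CPM in the DMSO libraries and 44.2, 44.2 and 42.9 CPM with the combination. The groups were far apart, and CALCR rose by 1.61 ± 0.09 on the log2 scale (± SE; edgeR adjusted p = 7.9e-28). SLC15A2, a transporter of small peptides, had 10.3, 7.57 and 11.7 CPM in DMSO and 29.8, 31.6 and 28.4 CPM with the combination. It rose by 1.59 ± 0.12 on the log2 scale, again with no overlap. The potassium channel gene KCNJ13 had 1.89, 1.89 and 1.67 CPM in DMSO and 6.10, 6.31 and 6.18 CPM with the combination. CALHM4, of a family of calcium-modulated channels, went from 3.44 to 4.39 CPM over the DMSO libraries to 12.2 to 14.5 CPM with the combination. These 2 genes rose by 1.75 ± 0.27 and 1.71 ± 0.18 on the log2 scale. ARHGEF6 (1.61 ± 0.21), CDC42EP3, an effector of CDC42 (1.57 ± 0.17), and TYRP1, a melanin synthesis enzyme (1.54 ± 0.21), rose as well. The remaining leading rises were at GOLGA6C, RAB40A, ABCA8, SMIM9 and TAAR6, with log2 folds of 1.57 to 1.78. GOLGA6C belongs to a family of near-identical copies among which reads may be split, so its value is uncertain.

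The promoters of CALCR and KCNJ13, both among the leading genes, are shown because their promoter peaks rose: the CALCR promoter peak (chr7:93574258-93576758, hg38) rose by 1.58 ± 0.10 and the KCNJ13 promoter peak (chr2:232776298-232776866, hg38) by 1.70 ± 0.26 on the log2 scale. The 250 bases before each start site are taken from RefSeq (GRCh38.p14), which had a promoter entry for 15183 of the tested genes (71.2%), at chr7:93574725-93574974 and chr2:232776566-232776815, both on the minus strand and printed 5′ to 3′ along the gene. Capitals mark matches to the searched motifs, an NF-Y match (CCAATCA) and a TEAD match (GGAATGT) in KCNJ13; no searched motif was found in CALCR.
CALCR: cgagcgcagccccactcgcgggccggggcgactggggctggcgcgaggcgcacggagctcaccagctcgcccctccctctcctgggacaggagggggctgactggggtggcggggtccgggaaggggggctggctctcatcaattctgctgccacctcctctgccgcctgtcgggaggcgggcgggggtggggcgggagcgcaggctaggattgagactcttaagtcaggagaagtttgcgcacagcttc
KCNJ13: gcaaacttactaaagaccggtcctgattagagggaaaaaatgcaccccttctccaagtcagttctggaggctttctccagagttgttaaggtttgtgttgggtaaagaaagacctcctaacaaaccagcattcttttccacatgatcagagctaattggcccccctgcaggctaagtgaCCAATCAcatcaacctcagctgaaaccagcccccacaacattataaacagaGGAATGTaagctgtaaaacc

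At several of the genes with the largest falls the change lay in a peak beside the promoter. CRYZ, a quinone oxidoreductase, had 12.5, 9.46 and 11.7 CPM in DMSO and 1.29, 1.91 and 2.51 CPM with the combination. It fell by 2.56 ± 0.23 on the log2 scale (edgeR adjusted p = 9.6e-17), and the fall sat in a peak 2926 bp from the TSS (chr1:74729884-74730482, hg38), where the log2 fold was -2.68 ± 0.23. MEMO1, a mediator of ERBB2-driven cell motility, had 24.9, 24.4 and 22.2 CPM in DMSO and 7.95, 9.18 and 9.07 CPM with the combination, without overlap. Its fall of -1.45 ± 0.13 lay in a peak within intron 2 of 9. PMFBP1, a gene of sperm development, went from 15.3, 14.1 and 15.5 CPM to 5.18, 4.40 and 5.21 CPM. GTF3C2, which helps RNA polymerase III to start, fell by 1.32 ± 0.15 on the log2 scale through a peak 2734 bp from its TSS. The histone gene H4C9 (-1.56 ± 0.19) and RAB22A, a GTPase of endosomes (-1.50 ± 0.19), also fell, as did MFSD12, OR9Q2, SUGCT, WDR54, PRPF39 and RBM10, with log2 folds of -1.25 to -1.38. RBM10 did not pass over peaks within 50 kb (-0.14).

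**Figure D1:**
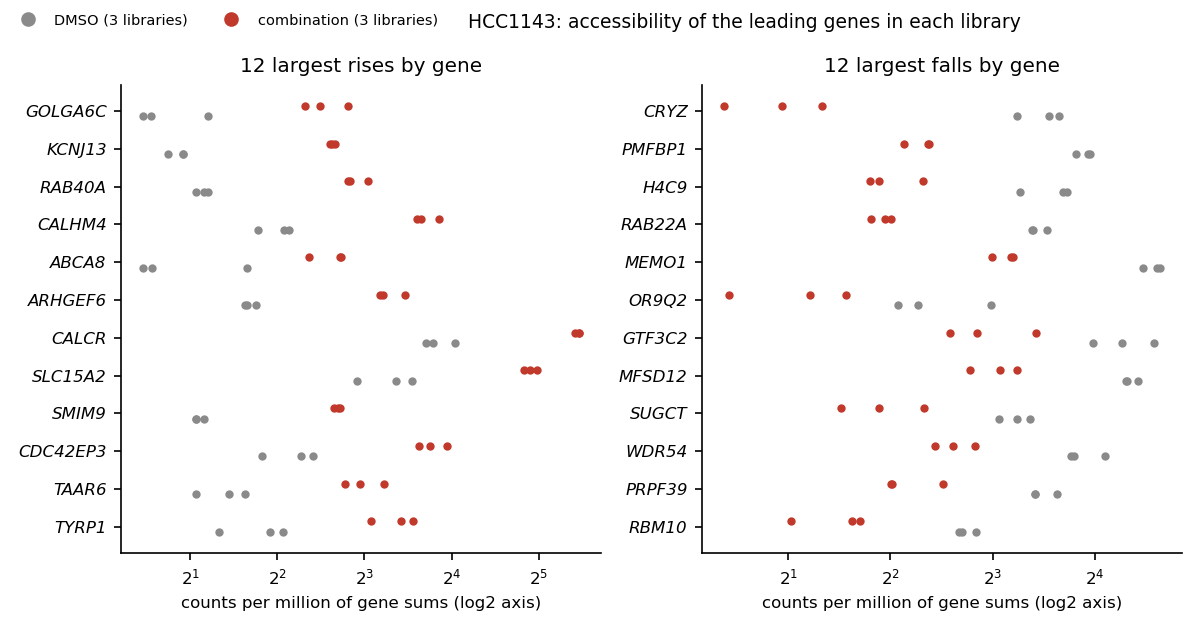
Accessibility of the 12 protein-coding genes with the largest rise (left) and the largest fall (right); the x axis gives CPM of gene sums on a log2 scale and each point is 1 library, grey for DMSO and red for the combination. CALCR sits between 13.1 and 16.4 CPM in DMSO and between 42.9 and 44.2 CPM with the combination, and CRYZ falls from at least 9.46 to at most 2.51 CPM.

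Among developmental genes known as PRC2 targets, more rose than fell. Of 70 tested genes of that list, 32 rose, 3 fell and 35 did not pass, against 19% risen and 14.6% fallen among all genes, and the list median was 0.17 against -0.01 for all genes. DESeq2 called 22 risen and 1 fallen, 16 rose over peaks within 1 kb, and 1 fell without DMSO library 2. Fewer of all genes were called there too, 4021 in DESeq2, 3621 over peaks within 1 kb and 5965 without DMSO library 2. OTX2, a homeobox factor of the forebrain, had 3.78, 4.41 and 1.88 CPM in DMSO and 7.95, 6.50 and 6.18 CPM with the combination. It rose by 1.02 ± 0.23 on the log2 scale (edgeR adjusted p = 0.00024). NKX2-5, a homeobox factor of the heart, had 49.2, 43.3 and 46.8 CPM in DMSO and 73.6, 77.6 and 69.9 CPM with the combination, and rose by 0.66 ± 0.06. Its rise was spread over several peaks and was not called at the promoter peak, where the log2 fold was 0.32 ± 0.22, nor over peaks within 1 kb (0.39). OLIG3, a bHLH factor of the neural tube, rose by 0.77 ± 0.12. WT1, a zinc finger factor of the kidney and gonad, rose by 1.01 ± 0.29, with an adjusted p of 0.0041 in edgeR and 0.059 in DESeq2. Without combination library 2, the WT1 fold was 0.65 and did not pass (edgeR adjusted p = 0.15). LHX8 (0.63), TBX2 (0.62), TBX15 (0.61) and DLX5 (0.58) were among the other risen members. The fallen members were ZIC4 (-0.34), IRX2 (-0.16) and FOXC1 (-0.15).

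The subunits and antagonists of PRC2 moved little. Of 17 tested, 1 rose and 3 fell, against 19% risen and 14.6% fallen among all genes. EZH2 itself had 33.5, 34.3 and 29.1 CPM in DMSO and 30.9, 31.2 and 33.4 CPM with the combination, a log2 fold of -0.03 ± 0.09 that did not pass. RBBP7, a histone-binding subunit, fell by 0.33 ± 0.07 on the log2 scale, but did not pass over peaks within 50 kb (-0.09), and KDM6B, a demethylase that removes the PRC2 mark, fell by 0.20 ± 0.03.

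In the PI3K-AKT-mTOR pathway, 4 of 25 tested genes rose and 6 fell, against 19% risen and 14.6% fallen among all genes. The 6 fallen became 2 in DESeq2, 2 without DMSO library 2 or combination library 2, 3 without DMSO library 1 or 3 and 1 over peaks within 1 kb. AKT1, a target of ipatasertib, had 52.1, 64.3 and 56.9 CPM in DMSO and 44.5, 45.5 and 41.9 CPM with the combination. The groups did not overlap, and AKT1 fell by 0.38 ± 0.07 on the log2 scale (edgeR adjusted p = 2.1e-06), with a log2 fold of -0.60 ± 0.08 at its promoter peak. IRS2, an adaptor of the insulin receptor that FOXO factors are known to induce, fell by 0.24 ± 0.05, and INSR, the insulin receptor, rose by 0.30. PIK3CA (0.49 ± 0.18) and TSC2 (-0.38 ± 0.15) passed in edgeR but not in DESeq2, with adjusted p of 0.16 and 0.19 there. PIK3CA also did not pass without DMSO library 3 or without combination library 1 or 3, with log2 folds of 0.35 to 0.42. TSC2 did not pass when any library but combination library 1 was left out, with log2 folds of -0.28 to -0.39, nor with the replicate number as a block (adjusted p = 0.052).

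Of 28 FOXO factors and known targets 7 rose and 5 fell, with a median of 0.04, near the 19% risen and 14.6% fallen among all genes. Over peaks within 1 kb 1 fell. The changed members with the largest folds in size were G6PC1, PDK4, PCK1 and SOD2, all risen. G6PC1, a gluconeogenic phosphatase, had 5.16, 4.63 and 5.02 CPM in DMSO and 9.06, 8.22 and 9.84 CPM with the combination, a rise of 0.87 ± 0.19 on the log2 scale. PDK4, which limits the entry of pyruvate into mitochondria, rose by 0.51 ± 0.08, PCK1, another gluconeogenic enzyme, by 0.44 ± 0.12, and SOD2, the mitochondrial superoxide dismutase, by 0.42 ± 0.11. With other windows PCK1 stood at -0.05 (1 kb) and SOD2 at 0.01 (50 kb), and neither passed. DDIT4, an inhibitor of mTOR (-0.33), and CDKN1A, a CDK inhibitor (-0.26), fell. FOXO1 had a log2 fold of -0.06 ± 0.04 and did not pass. FOXO3 passed in edgeR at -0.11 ± 0.04 and not in DESeq2 (adjusted p = 0.088), nor without DMSO library 2 (-0.08) or combination library 2 (-0.08).

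Of 24 receptor tyrosine kinases 14 rose and 2 fell, and the median was 0.16, against 19% risen, 14.6% fallen and a median of -0.01 among all genes. DESeq2 called 9 risen and 1 fallen, and 1 fell without DMSO library 3 or over peaks within 1 kb. FLT3, a receptor of blood progenitors, had 38.2, 40.6 and 35.1 CPM in DMSO and 55.3, 63.3 and 57.5 CPM with the combination, a rise of 0.63 ± 0.07. MERTK, a receptor for phosphatidylserine-binding ligands, had 37.0, 36.2 and 37.2 CPM in DMSO and 58.8, 52.8 and 57.7 CPM with the combination, a rise of 0.62 ± 0.07. KDR, the main receptor for VEGF, rose by 0.70 ± 0.11 and KIT, a receptor of luminal progenitors, by 0.45 ± 0.05. KDR's rise depended on the window, with a log2 fold of -0.0031 over peaks within 50 kb. MET (-0.28) and MST1R (-0.19), the receptors for hepatocyte growth factor and its relative, fell. EGFR (-0.02 ± 0.05) and ERBB3 (0.01 ± 0.04) did not pass.

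Of 25 luminal genes 7 rose and 8 fell, against 19% risen and 14.6% fallen among all genes, and 3 fell over peaks within 1 kb. ESR1, the oestrogen receptor, had 3.78, 3.36 and 5.44 CPM in DMSO and 7.39, 8.61 and 6.18 CPM with the combination, without overlap. It rose by 0.82 ± 0.21 on the log2 scale, and PGR, the progesterone receptor, by 0.48 ± 0.07. GATA3, a factor of luminal identity, had 100, 109 and 105 CPM in DMSO and 123, 138 and 135 CPM with the combination. It rose by 0.34 ± 0.04, with log2 folds of 1.53 ± 0.19 at a peak 9612 bp upstream and 0.33 ± 0.09 at the promoter. ELF3, an epithelial ETS factor, went the other way, from 219, 219 and 216 CPM to 146, 146 and 148 CPM, without overlap. It fell by 0.57 ± 0.04 on the log2 scale (edgeR adjusted p = 1.2e-25). Its promoter peak did not pass (-0.13 ± 0.08), nor did its sum over peaks within 1 kb (-0.06), whereas 5 peaks over its exons fell by 0.69 to 1.74 on the log2 scale. FOXA1, a pioneer factor of luminal cells, fell from 108, 108 and 101 CPM to 84.5, 82.4 and 89.2 CPM, a log2 fold of -0.32 ± 0.05. EPCAM (-0.38), CLDN4 (-0.34), MUC1 (-0.28) and KRT19 (-0.25) fell too.

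Among basal and squamous genes, more fell than rose. Of 26 basal markers 10 fell and 6 rose, with a median of -0.09, against 19% risen and 14.6% fallen among all genes. DESeq2 called 2 of them risen, and 5 fell over peaks within 1 kb. Of 24 squamous differentiation genes 9 fell and 2 rose, with a median of -0.15 that changed sign where only peaks within 1 kb were summed, where none was called fallen (edgeR). The 9 fallen became 2 in DESeq2, 3 without combination library 1 and 5 without DMSO library 1 or combination library 2, and 1 rose in DESeq2 or without DMSO library 2 or combination library 2. A peak over the promoter of SPRR1A, a gene of the squamous list, had a log2 fold of -1.85, below the lowest gene sum tested in that list (-0.73). KRT6A, a keratin of activated basal cells, had 89.9, 92.1 and 93.7 CPM in DMSO and 61.7, 57.0 and 61.8 CPM with the combination. The groups did not overlap, and KRT6A fell by 0.61 ± 0.05 on the log2 scale (edgeR adjusted p = 2e-18). KRT14 (-0.40 ± 0.06), KRT17 (-0.30 ± 0.07) and KRT5 (-0.24 ± 0.03), keratins of the basal layer, fell with it. Over peaks within 1 kb KRT14 and KRT17 did not pass (-0.09 for each). At KRT5 a peak over exon 9 of 9 had a log2 fold of -1.64 ± 0.16, against -0.29 ± 0.07 at the promoter. ITGA6, an integrin that anchors basal cells to their membrane, fell (-0.30). MME, a membrane peptidase of myoepithelial cells (0.87 ± 0.13), and TAGLN, a smooth muscle protein (0.41 ± 0.10), rose. TP63, the master factor of basal cells, had a log2 fold of 0.40 ± 0.15 that passed in edgeR (adjusted p = 0.032) and not in DESeq2 (0.17). It did not pass without DMSO library 1 or 3 or combination library 1 or 3, with log2 folds of 0.32 to 0.41. TP63 also lost its call over peaks within 1 kb or 50 kb, and with a scaling that follows the level of the gene (abundance-trended offsets). The luminal keratin KRT8 rose by 0.29 ± 0.05, though not over peaks within 50 kb (0.04), and KRT18 did not pass (0.10 ± 0.05).

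Among mesenchymal, fibroblast and endothelial genes, more rose than fell. The shares among all genes were 19% risen and 14.6% fallen. Of 24 mesenchymal genes 14 rose and 2 fell, with a median of 0.18, and 1 fell in DESeq2 or without combination library 2. SPARC, a matrix protein, had 11.5, 10.9 and 13.6 CPM in DMSO and 26.1, 21.8 and 19.5 CPM with the combination, a rise of 0.91 ± 0.12. COL1A2, a collagen chain, rose by 0.57 ± 0.15 and VIM, the mesenchymal filament protein, by 0.19 ± 0.04. ZEB1 (0.10 ± 0.07) did not pass, and SNAI2 (-0.20) and S100A4 (-0.25) fell. Of 10 fibroblast genes 6 rose and none fell in edgeR, while DESeq2 called 1 risen and 3 rose over peaks within 1 kb. TCF21, a bHLH factor of the stroma, rose from 2.92, 5.05 and 4.39 CPM to 9.24, 10.9 and 12.5 CPM, a log2 fold of 1.42 ± 0.20. Of 15 endothelial genes 7 rose and 3 fell, led by PROX1, the homeobox factor of lymphatic endothelium (1.10 ± 0.12), and 1 fell in DESeq2, without combination library 1 or over peaks within 1 kb. Of the epithelial markers used to check the cells 6 of 8 tested fell and 1 rose. The summed level of these epithelial markers was 950 to 982 CPM in DMSO and 858 to 879 CPM with the combination. The 7 basal markers of the check summed to 778 to 798 and 652 to 655 CPM, with 5 fallen and 1 risen. The mesenchymal markers of that check summed to 400 to 418 and 454 to 484 CPM. The 4 tested fibroblast markers summed to 82.0 to 95.0 and 103 to 109 CPM, the 5 endothelial markers to 185 to 199 and 203 to 206 CPM and the 3 tested immune markers to 156 to 167 and 148 to 154 CPM. Whether a shift in the mix of cells had a part in these changes was not tested.

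Of 21 genes read out by YAP and TEAD 9 rose and 2 fell, against 19% and 14.6% of all genes. CCN2, a secreted matrix protein and a standard target of TEAD, had 75.1, 78.8 and 79.0 CPM in DMSO and 128, 130 and 137 CPM with the combination. It rose by 0.77 ± 0.04 on the log2 scale (edgeR adjusted p = 1.5e-27). The promoter peak rose by 0.49 ± 0.06, and peaks 4482 and 4969 bp past the TSS by 1.95 ± 0.14 and 1.78 ± 0.20. WWTR1, which encodes the YAP partner TAZ, rose by 1.06 ± 0.15 and ANKRD1, another standard target, by 0.49 ± 0.05. Among AP-1 and ERK feedback genes 10 of 27 rose and 5 fell, or 3 fell in DESeq2 or without DMSO library 2 and 2 over peaks within 1 kb. ETV4, an ETS factor, had 20.1, 19.6 and 20.1 CPM in DMSO and 39.4, 40.0 and 42.9 CPM with the combination, a rise of 1.03 ± 0.09. EGR1, an immediate early factor, rose by 0.39 ± 0.03 and BATF by 0.51 ± 0.07, whereas FOSL1 fell (-0.24). Of 29 WNT pathway genes 12 rose and 4 fell, among them LEF1, a nuclear effector (1.01 ± 0.19), and the antagonists SFRP1 (0.57 ± 0.06) and SFRP2 (0.50 ± 0.07). DESeq2 called 1 of the WNT genes fallen, and 2 fell over peaks within 1 kb. Of 27 TGF-beta and BMP genes 9 rose and 3 fell; 5 rose in DESeq2 or without combination library 3 and 4 over peaks within 1 kb, where the median turned from 0.05 to -0.0063, and 5 fell without combination library 1. Among them were BMPR1B, a BMP receptor, at 0.98 ± 0.14 and BMP7 at 0.50 ± 0.08.

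Among inflammatory genes, more fell than rose. Of 24 cytokine and NF-kB genes 11 fell and 3 rose, with a median of -0.08, against 19% risen and 14.6% fallen among all genes, and 4 fell over peaks within 1 kb. CCL2, a chemokine for monocytes, had 9.97, 10.3 and 9.41 CPM in DMSO and 5.92, 7.65 and 4.63 CPM with the combination, a log2 fold of -0.70 ± 0.18 (edgeR adjusted p = 0.00098). REL, an NF-kB subunit (-0.47 ± 0.10), IL1B (-0.39 ± 0.07) and IL1A (-0.39 ± 0.08) fell with it, and CXCL1 (0.33) and ICAM1 (0.29) rose. REL did not pass over peaks within 1 kb (-0.43). Of 23 genes of sterol and fatty acid synthesis 5 fell and none rose (edgeR), and 2 fell in DESeq2 or over peaks within 1 kb and 3 without DMSO library 1. SREBF1, the factor that drives lipid synthesis, fell from 267, 276 and 271 CPM to 205, 205 and 208 CPM, a log2 fold of -0.40 ± 0.03. Housekeeping genes fell in 5 of 13 cases and rose in none, with ACTB, a cytoskeletal actin, at -0.23 ± 0.03, and 3 fell in DESeq2 or over peaks within 1 kb. The cell cycle list had 1 risen and 4 fallen of 30 and the replication list 2 fallen of 23, both below the 33.6% of all genes that changed. In the cell cycle list 2 fell in DESeq2 or without combination library 3. CCND1 (-0.10 ± 0.04) missed the threshold (edgeR adjusted p = 0.051). CDKN1B was not among the genes tested, whether for low counts or for want of a peak assigned within 10 kb. In the BCL2 family 2 of 15 rose and 1 fell; BMF, a BH3-only death gene, had 242, 242 and 246 CPM in DMSO and 262, 272 and 262 CPM with the combination, a rise of 0.12 ± 0.03 that became -0.05 over peaks within 1 kb. STAT3 did not pass (-0.03 ± 0.06).

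**Figure D2:**
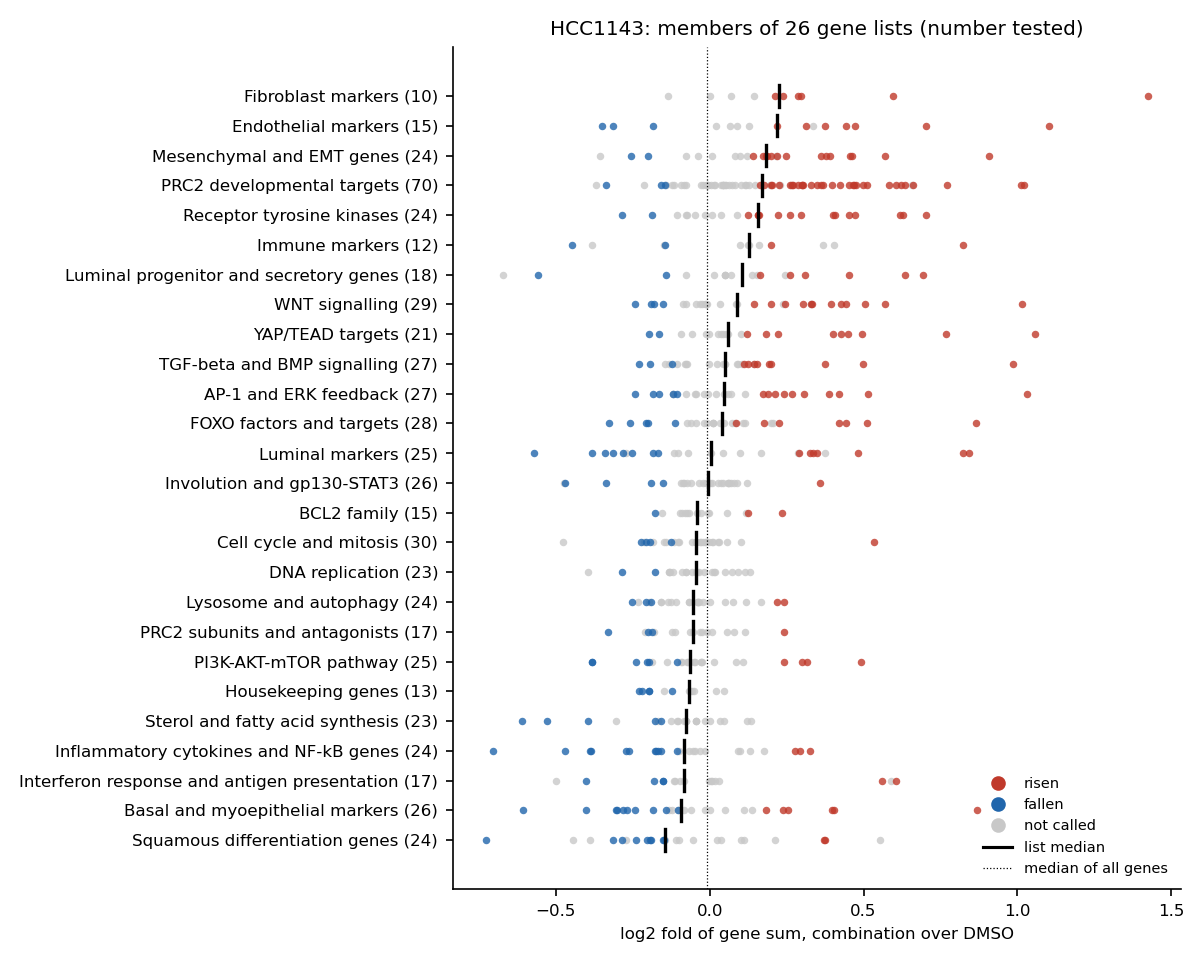
Log2 fold of the gene sum, combination over DMSO, for each tested member of 26 gene lists; points are genes, red where risen, blue where fallen and grey where not called, black bars are list medians and the dotted line is the median of all genes. Medians run from -0.15 in squamous differentiation genes to 0.23 in fibroblast markers, and PRC2 developmental targets have 32 red points against 3 blue.

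Single peaks showed where the change lay. Of 189629 peaks tested, 55545 (29.3%) changed, 29093 upward (15.3%) and 26452 downward (13.9%), and 17092 (9.01%) did so by a log2 fold of at least 1 in size, 10617 risen (5.6%) and 6475 fallen (3.41%; edgeR quasi-likelihood test). DESeq2 called 23600 peaks. Within 1000 bp of a TSS 17.8% of peaks fell and 10.8% rose. Farther away the order turned, with 13.6% fallen and 15.8% rising, and in distal intergenic sequence 12.7% fell and 17.4% rose. Peaks near start sites seldom moved far: 2.70% of the peaks that rose by a log2 fold of at least 1 lay there, against 9.30% of all tested peaks. The balance also moved with the level of the peak. With peaks in 5 equal bins by mean CPM, in the top bin 23.4% fell and 13.7% rose, whereas in the next 15.6% fell and 20.4% rose. Chromosome 19 stood at one end, with 20.9% of 6131 peaks fallen and 6.62% risen, and chromosome 16 followed with 16.6% and 9.39%. On chromosome 13, 12.4% fell and 18.2% rose.

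**Figure D3:**
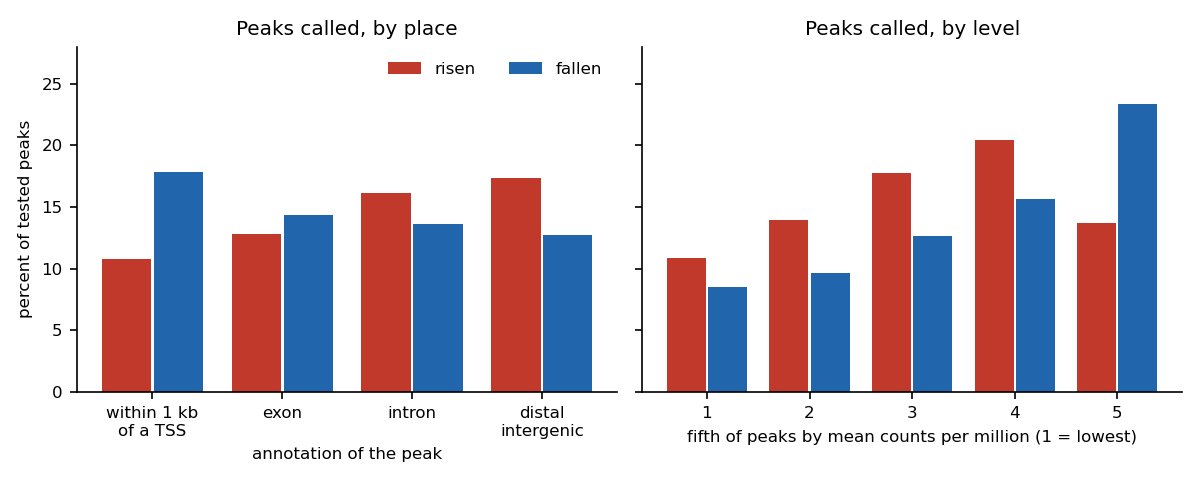
Percent of tested peaks that rose (red) or fell (blue) by annotation of the peak (left) and by bin of mean CPM (right). Falls outnumber rises within 1 kb of a start site (17.8% against 10.8%) and in the top bin (23.4% against 13.7%), and rises outnumber falls in introns and intergenic sequence.

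The largest rise among well-covered peaks lay in intergenic sequence 178955 bp from NUAK1, a kinase related to AMPK (chr12:105959999-105961391, hg38). It had 1.12, 1.61 and 1.23 CPM in DMSO and 17.9, 18.4 and 19.0 CPM with the combination, where CPM of a peak takes the counts in tested peaks as the total. The rise was 14.0-fold, or 3.81 ± 0.13 on the log2 scale (edgeR adjusted p = 5.4e-61). Of 89 peaks tested within 500000 bp, itself included, 34 rose and 4 fell, against 15.3% and 13.9% of all peaks, and the others reached a log2 fold of at most 2.13. Of the 2 NUAK1 peaks within 1000 bp of the TSS, the one at the TSS rose by 0.16 ± 0.06 and the one 865 bp from it fell by 0.69 ± 0.18 on the log2 scale. Those at 2254 bp (0.04 ± 0.12) and 2851 bp (-0.34 ± 0.21), also annotated as promoter, did not pass. A second strong site lay 165857 bp from C5orf22 (chr5:31364755-31366430, hg38), with 4.03, 4.55 and 4.07 CPM in DMSO and 25.7, 27.5 and 25.5 CPM with the combination, a rise of 2.64 ± 0.09. Peaks in an intron of ZFPM2 (2.78 ± 0.19) and near DDX10 (2.72 ± 0.18), BCAS1 (2.69 ± 0.18) and LINC01038 (2.68 ± 0.17) followed. At promoters the largest rise was at the RNA gene LINC02518 (chr6:113432639-113434159, hg38), from 2.09, 1.90 and 2.27 CPM to 10.6, 10.1 and 10.8 CPM.

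The largest fall lay in intron 1 of 4 of the RNA gene LOC105374701 (chr5:28726556-28727380, hg38), from 9.93, 10.1 and 10.5 CPM to 1.59, 1.31 and 1.24 CPM, a log2 fold of -2.87 ± 0.15. A peak in intron 5 of 7 of SERPINB2, a serpin of keratinocytes and macrophages (chr18:63903969-63904659, hg38), fell from 7.62, 8.06 and 5.77 CPM to 1.51, 1.14 and 1.40 CPM. Peaks near ZNF273 (-2.39 ± 0.14) and MIR1269A (-2.17 ± 0.15), in intron 1 of 16 of SEMA3A (-2.12 ± 0.16) and over exon 24 of 30 of ATP13A5 (-2.06 ± 0.15) followed. At promoters the largest fall was at SNORD70 (-1.57 ± 0.17).

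Some genes changed at many peaks. The genes here were picked for the most peaks risen or fallen by a log2 fold of at least 1. Such a pick favours genes with many assigned peaks. Among all tested peaks 15.3% rose and 13.9% fell. TENM3, a teneurin adhesion protein of neurons, had 64 tested peaks over 659 kb of chromosome 4. Of these 54 rose, 49 with a log2 fold of 1 or more, and none fell (edgeR). Summed over those peaks, TENM3 held 80.4, 74.6 and 78.2 CPM in DMSO and 177, 171 and 170 CPM with the combination, 2.22 times as much. The neighbouring antisense region, listed as TEMN3-AS1, had 20 of 26 peaks risen and rose 2.12-fold. PDE10A, a cyclic nucleotide phosphodiesterase, had 34 of 57 peaks risen and 3 fallen. CTNNA3, an alpha-catenin, had 34 of 105 risen and 5 fallen, and LINC02774 31 of 52 risen and 1 fallen. XG, whose assigned peaks span 2553 kb, had 53 of 184 risen and 16 fallen and a sum 1.08 times as high. The 5 peaks called within 60 kb of the XG start site all fell. Falls led at TXNRD1, the thioredoxin reductase, where 49 of 64 peaks fell and none rose (edgeR) over 148 kb of chromosome 12. Its sum went from 402, 425 and 428 CPM to 295, 304 and 305 CPM, and the falls lay mostly past the first 60 kb of the region. At PLEC, which encodes the plectin linker of hemidesmosomes, 28 of 33 peaks fell, and at COL22A1 28 of 43 and at SERPINB2 17 of 30. At YWHAZ 24 of 46 fell and 1 rose. DLG2, a synaptic scaffold, was mixed, with 23 of 88 fallen and 14 risen.

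**Figure D4:**
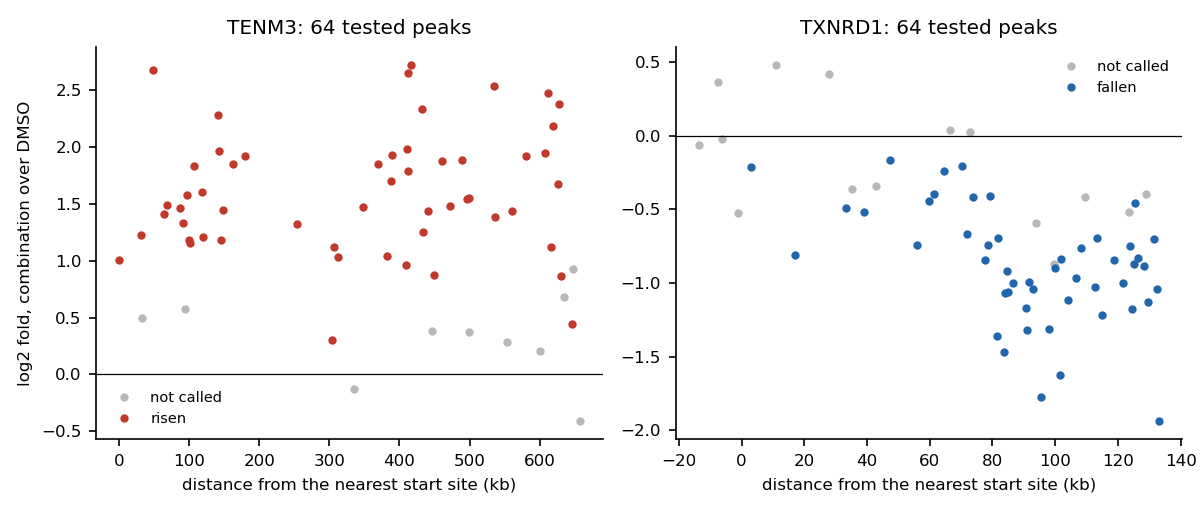
Log2 fold, combination over DMSO, of every tested peak assigned to TENM3 (left) and TXNRD1 (right) against its distance from the nearest start site in kb; red points rose, blue points fell and grey points were not called. At TENM3 54 of 64 peaks rose across 659 kb, and at TXNRD1 49 of 64 fell, most of them past 60 kb.

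Promoter sequences were searched for short motifs. RefSeq windows of 300 bases (250 before and 50 after the start, GRCh38.p14) were searched on both strands for 20 motifs where at least 150 bases of a window lay in a tested peak. This held for 21318 windows, a number equal to that of genes tested only by coincidence, of which 2035 rose and 4361 fell. A smaller set, by a rule chosen after seeing the data, had a log2 fold of at least 0.5 in size, with 975 risen and 327 fallen, and several shares turned round between the 2 sets. The AP-1 motif TGAGTCA was in 5.26% of risen, 6.12% of fallen and 5.07% of all windows, and in 4.95% of RefSeq promoters. In the smaller set it was in 5.54% of risen and 17.1% of fallen windows. The TEAD motif GGAATGT was in 5.06% of risen, 1.93% of fallen and 2.63% of all windows, and in 3.46% of RefSeq promoters. In the smaller set the TEAD shares were 6.15% of risen and 3.67% of fallen windows. The ETS motif CCGGAAG was in 3.88% of risen, 17.1% of fallen and 14.9% of all windows, and in 10.3% of RefSeq promoters. There the smaller set had ETS matches in 2.67% of risen and 4.28% of fallen windows. Thus ETS was less common in risen windows in either set, and in fallen windows only in the smaller one. The SP/KLF motif GGGGCGGGG was in 20.1% of risen, 26.2% of fallen and 23.7% of all windows, and in 15.7% of RefSeq promoters. The smaller set held it in 15.5% of risen and 9.48% of fallen windows. The NRF1 motif GCGCATGCG was in 0.442% of risen, 3.28% of fallen and 2.84% of all windows, and in 1.92% of RefSeq promoters. In the smaller set NRF1 was in 4 risen and 3 fallen windows. The forkhead motif TGTTTAC was in 4.03% of risen, 2.48% of fallen and 2.76% of all windows, and in 3.42% of RefSeq promoters. It was in 39 risen and 24 fallen windows of the smaller set, the latter 7.34%. The homeobox motif TAATTA was in 3.64% of risen, 1.81% of fallen and 2.41% of all windows, and in 4.84% of RefSeq promoters. For the smaller set these were 4.51% of risen and 6.42% of fallen windows. The other motifs searched are named with their shares of all windows and of RefSeq promoters. They were the CRE motif TGACGTCA (2.62% and 1.85%), the p53 family motif ACATGTC (1.02% and 1.59%), the STAT motif TTCCNGGAA (1.09% and 1.15%) and the GRHL motif AACCGGTT (0.174% and 0.134%). To these came the GATA motif AGATAAG (1.55% and 2.68%), the RUNX motif TGTGGTT (3.4% and 4.27%), the C/EBP motif TTGCNNAA (7.61% and 10.5%), the NF-kB motif GGAANTTCC (1.09% and 0.965%) and the SRE motif TCACNCCAC (1.12% and 1.13%), and then the CLEAR motif CACGTGAC (3.47% and 2.4%), the NF-Y motif CCAATCA (7.89% and 6.95%), the E2F motif TTTGGCGC (0.919% and 0.652%) and the CTCF motif CCACNAGG (5.11% and 4.93%). RUNX was in 5.03% of risen and 6.12% of fallen windows of the smaller set, and NF-kB in 0.615% and 0.612%. The median GC content was 64.3% in risen, 65.3% in fallen and 64.7% in all windows, and 59.0% and 53.7% in the risen and fallen windows of the smaller set. The part of GC content in the motif shares was not tested. A match is a description of letters and not of binding, and the shares carry no test.

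These windows are shown for the motif they hold, CCN2, which rose by less than 0.5, for TEAD, AKT1 for a promoter that fell without an AP-1 match and SPRR1A, a gene of the cornified envelope, for AP-1. SPRR1A was chosen after its values were seen; its promoter peak had a log2 fold of -1.85 (edgeR adjusted p = 4.6e-09). The sequences are the 250 bases before the start in RefSeq GRCh38.p14, at chr6:131951373-131951622 (minus strand), chr14:104795749-104795998 (minus strand) and chr1:152983831-152984080 (plus strand), 5′ to 3′ along the gene. Capitals mark GGAATGT in CCN2, the SP/KLF motif GGGGCGGGG in AKT1 and TGAGTCA in SPRR1A.
CCN2: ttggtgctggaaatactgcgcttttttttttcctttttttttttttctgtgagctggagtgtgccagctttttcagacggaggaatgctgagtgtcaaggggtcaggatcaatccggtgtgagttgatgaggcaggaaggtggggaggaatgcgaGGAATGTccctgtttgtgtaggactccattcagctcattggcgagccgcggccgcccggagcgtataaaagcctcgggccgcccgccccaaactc
AKT1: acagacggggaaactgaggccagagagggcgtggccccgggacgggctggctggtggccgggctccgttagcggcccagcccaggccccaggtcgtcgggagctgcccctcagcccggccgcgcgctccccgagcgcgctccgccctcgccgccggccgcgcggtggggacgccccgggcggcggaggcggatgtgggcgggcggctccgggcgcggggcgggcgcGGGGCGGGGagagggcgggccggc
SPRR1A: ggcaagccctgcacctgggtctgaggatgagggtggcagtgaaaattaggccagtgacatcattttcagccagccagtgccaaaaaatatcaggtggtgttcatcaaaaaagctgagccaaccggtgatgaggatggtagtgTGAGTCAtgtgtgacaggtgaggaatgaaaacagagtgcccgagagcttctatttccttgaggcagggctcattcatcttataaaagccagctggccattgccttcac

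The response of HCC1143 was set against that of the other 8 lines, with the 3 libraries of each group summed and the line as the unit of replication. No gene of 24409 tested differed at an adjusted p under 0.05 (0%; edgeR quasi-likelihood test of the treatment-by-HCC1143 term), and 861 genes (3.53%) had an unadjusted p under 0.05. The smallest adjusted p was 0.52. This test can only see large differences, since 1 line stands against a spread of 13.7% between lines (biological coefficient of variation). Of the 4044 genes that rose in HCC1143, 84.6% had a mean response above 0 in the other lines, against 44.5% of all tested genes. Of the 3115 that fell, 78.8% had a mean below 0 there, against 55.5% of all. Across genes, the Pearson correlation of the HCC1143 response with that of another line lay between 0.19 (MDA-MB-468) and 0.38 (HCC1937), over 21318 genes that are not independent replicates.

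Of all tested genes, 11.5% were highest and 10.4% lowest in HCC1143 among the 9 lines. The genes below were picked from those named above with these values known, so their place among the lines is a description. Other named genes lay inside the range, such as GATA3 at 0.34, with the other lines between -0.28 and 0.64. FOXA1 had the lowest response in HCC1143, at -0.31, and lay between -0.09 and 0.65 in the others. ELF3 was lowest at -0.57, with the others between -0.47 and 0.49. CRYZ was lowest at -2.51, with the others between -1.20 and 0.74. ETV4 was highest at 1.03, with the others between -0.10 and 0.46, and its difference from their mean was 0.89 ± 0.22. SOD2 was highest at 0.42, with the others between -1.01 and 0.05. CALCR and PROX1 rose in all 8 other lines, with responses of 0.23 to 2.81 and of 0.40 to 3.01, so HCC1143, at 1.61 and 1.10, was inside the range.

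Of 819181 peaks tested over the lines, 1 differed in HCC1143 (0.000122%), the intergenic peak nearest NUAK1. There HCC1143 exceeded the mean response of the other lines by 3.51 ± 0.40 on the log2 scale (edgeR adjusted p = 0.0016), and 38656 peaks (4.72%) had an unadjusted p under 0.05. With the counts in all peaks as the total, HCC1143 went from 1.12 to 16.2 CPM. BT-20 went from 6.46 to 10.9 CPM, MDA-MB-231 from 6.21 to 9.43 CPM and MDA-MB-468 from 8.08 to 9.51 CPM. The other 5 lines stayed below 2 CPM in either group. In DMSO 6 of the other 8 lines were above HCC1143, HCC1937 only slightly, and with the combination none was.

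**Figure D5:**
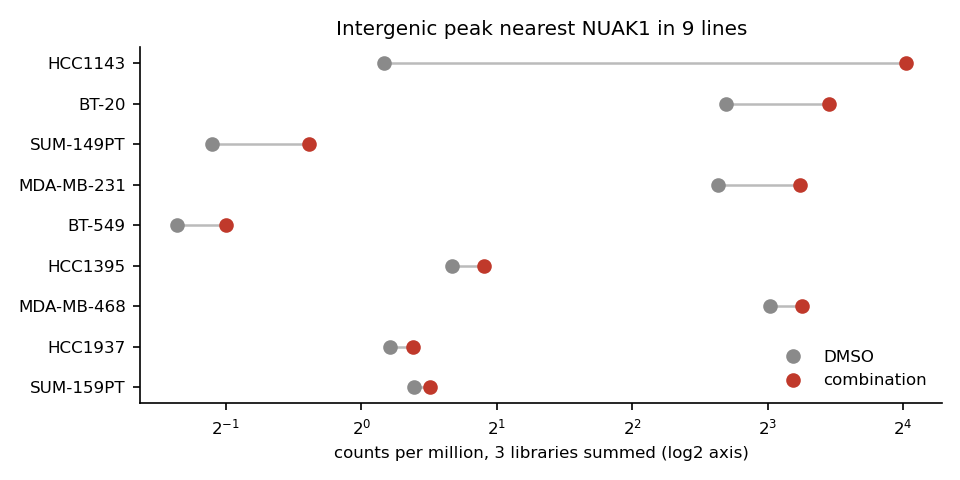
Level of the intergenic peak nearest NUAK1 in 9 lines, in CPM of 3 summed libraries on a log2 axis, grey for DMSO and red for the combination. HCC1143 moves from 1.12 to 16.2 CPM, while no other line exceeds 10.9 CPM in either group.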

How the data were processed

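MACS2, featureCounts and the build hg38 are named per the submitters' processing notes. Versions, aligner, duplicate removal and Tn5 shift were not given in the sources used here. The authors deposited whole-number counts, not normalised, for 861439 peaks shared by all lines, and a table giving each peak's gene and distance to the TSS; all columns were mapped to samples. Here, counts of peaks within 10 kb of a TSS were summed per gene. Peaks and gene sums passing filterByExpr (minimum count 10) were tested on the 6 libraries with edgeR 4.0.16 (TMM, robust quasi-likelihood test, R 4.3.3), adjusted over all features, at 0.05. The response against the other 8 lines was tested on summed replicates with line as block. SE is the log2 fold divided by the root of the F value matching the p-value. Scripts were tested on simulated counts.

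Named genes were the 12 largest protein-coding rises and falls (mean log2 CPM of at least 2, no overlap of libraries), a panel of 23 lineage and drug-target genes, up to 4 members of each of 26 lists, and the 6 genes with most risen and most fallen peaks; named peaks were the 6 largest each way and the largest at promoters. Not all are printed. Members and lists were chosen with earlier results of these data known. Of tested genes, 96.6% had a RefSeq symbol. Alternatives were DESeq2 1.42.0, other scalings, filters and windows, a replicate block and leaving out each library or line. The peak test over the lines had no alternative setting. Same-numbered libraries did not deviate together (correlations of -0.016, -0.013 and 0.006). The libraries of a group differed by less than sampling noise, so these correlations could not show whether numbers mark pairs. Numbers were not taken as pairs in the main test.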

Additional observations from a re-analysis of the deposited data

Results flagged for a closer look

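The intergenic peak nearest NUAK1 (chr12:105959999-105961391, hg38) was the 1 peak at which the response of HCC1143 differed from that of the other 8 lines, by 3.51 ± 0.40 on the log2 scale (edgeR adjusted p = 0.0016 over 819181 peaks). HCC1143 rose by 3.85 there, from 45 to 680 counts over 3 libraries, and the other lines rose by 0.12 to 0.76. The peak test over the lines was run in the main setting only. This call was therefore not checked with other scalings, filters or sets of lines. Groups here have 3 libraries, too few to look for single outlying ones.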

How the results depend on the processing

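Depth limits peaks more than gene sums: with a minimum count of 30, 35040 peaks were called of 90993 tested. DESeq2 gave 4021 genes (2510 risen, 1511 fallen) and 23600 peaks (13404 and 10196). Peaks within 1 kb gave 3621 genes (2262 and 1359), and those within 50 kb gave 10311 (5545 and 4766). A minimum count of 30 gave 18378 risen and 16662 fallen peaks. Calls that also needed a log2 fold of at least 0.5 (genes) or 1 (peaks), a rule chosen after seeing the data, numbered 2241 (1514 and 727) and 17092 (10617 and 6475). Leaving out each library in turn gave 5965 to 6214 genes (3521 to 3659 risen, 2432 to 2642 fallen) and 47271 to 48651 peaks (24516 to 25842 and 21875 to 23440). The replicate block gave 7158 genes (4103 and 3055) and 57723 peaks. No gene differed from the other lines with DESeq2 size factors, a minimum count of 30, peaks within 1 kb, or without any 1 line (edgeR; 861 at an unadjusted p under 0.05 in the test as reported). Of 141 named genes, 32 lost their call under DESeq2 and 10 with abundance-trended offsets; the cause was not tested. Log2 folds changed sign within 1 kb at BMF (-0.051), PCK1 (-0.053), CDH5 (-0.071) and RPL13A (0.051), and within 50 kb at KDR (-0.0031), PRRX1 (-0.0072), CCNE1 (0.070) and EGFR (0.10, called there only); other windows sum other peaks. GC-trended offsets were not run, as no genome was used here.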
